A study of Homo sapiens with 6 samples.

Results

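The genes described here are 45 factors that build ribosomes or organise the nucleolus, read out after depletion of the transcriptional coactivators YAP and TAZ. They were taken by symbol from a written list of rRNA processing and ribosome assembly genes. The list describes them as typical growth genes linked to the transcription factor MYC. All 45 were present among the 23459 genes of the count table. The cells were MCF10A, an untransformed human mammary epithelial line, transfected with siRNA at 20 nM, which was non-targeting in the control group (siCtrl, "the controls") and directed at both coactivators in the other (siYAP/TAZ, "after depletion"). The description of every library carries the label WT, and no other allele or agent is given for either group. The time between transfection and harvest is not given in the sources used here. Each group held 3 libraries of 3′ mRNA-Seq, a method that primes at the poly(A) tail so that each transcript yields reads from its 3′ end whatever its length. Group and replicate number were read from the description of each library. For siCtrl replicate 2 and siYAP/TAZ replicate 2, the title and the genotype entry name the opposite group, so the counts over the 45 genes are also given without them or with the other grouping.

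Ribosome production starts in the nucleolus, where RNA polymerase I transcribes a long precursor that holds the rRNAs of both subunits. Small nucleolar ribonucleoproteins (snoRNPs) modify this precursor at many positions, the small-subunit processome cuts out the 18S rRNA, and a separate set of assembly factors folds and exports the 60S subunit. The pathway consumes a large part of the energy of a growing cell, and many of its genes are textbook targets of the transcription factor MYC, which binds the E-box CACGTG together with MAX.

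Of 3 motifs searched in the promoters, the E-box was the one with the largest excess over other promoters. The written list describes its genes as MYC-linked, so this excess is not independent of how they were chosen. In RefSeq windows from 250 bases before to 50 bases after the transcription start (build GRCh38.p14), 38 of the 45 genes had an entry, and BOP1, DDX18, NOLC1, NOP58, RRP12, RRP1B and RRS1 had none. CACGTG, which reads the same on both strands, stood in 14 of the 38 windows, or 36.8%. The share was 10.2% of the 10034 windows of tested genes and 7.43% of all 27305 windows. It was 30% of 100 windows of other ribosome biogenesis genes and 22.2% of 18 windows of mitotic genes. The matches also stood close to the start. Of the 15 matches, 10 (66.7%) began within the first 50 transcribed bases, against 116 of 1159 (10%) over tested genes and 13 of 35 (37.1%) over the other ribosome biogenesis genes. A match is a description of letters and not evidence of binding. The stretches below, 30 bases each and written 5′ to 3′ on the strand of the gene, show the E-box in capitals for genes of different roles, with bases counted from 1 at the first transcribed base, and LYAR is added because it had the smallest p-value of all 45 and no E-box in its window.

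FBL, chr19:39846356-39846385, minus strand, E-box from base 7 after the start: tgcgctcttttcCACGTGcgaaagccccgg
WDR43, chr2:28894658-28894687, plus strand, from base 4: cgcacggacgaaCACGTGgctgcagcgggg
UTP20, chr12:101280083-101280112, plus strand, from base -10: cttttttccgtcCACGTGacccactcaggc
NOP14, chr4:2963374-2963403, minus strand, from base 16: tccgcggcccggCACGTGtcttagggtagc
BYSL, chr6:41921515-41921544, plus strand, from base 29: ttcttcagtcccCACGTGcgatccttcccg
PNO1, chr2:68157885-68157914, plus strand, from base 10: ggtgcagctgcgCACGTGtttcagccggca
PES1, chr22:30591880-30591909, minus strand, from base 14: tccttggcagggCACGTGcgggaggaagtg
MRTO4, chr1:19251807-19251836, plus strand, from base 15: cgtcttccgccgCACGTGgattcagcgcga
LYAR, chr4:4290375-4290404, minus strand, with the reverse complement of the TEAD motif GGAATG in capitals from base -249: cCATTCCcaccagcgccagccccgcacgcc

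The motif GGAATG, recognised by the TEAD factors through which YAP and TAZ reach DNA, was searched on both strands and stood in 6 of 38 windows (15.8%), against 10.6% of windows of tested genes and 14% of all windows. TGANTCA, the site of AP-1, stood in 1 of 38 windows (2.63%, EXOSC8), against 4.44% and 7.76%. The median GC content of the windows was 64.2%, close to the 65% of tested genes.

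**Figure D1:**
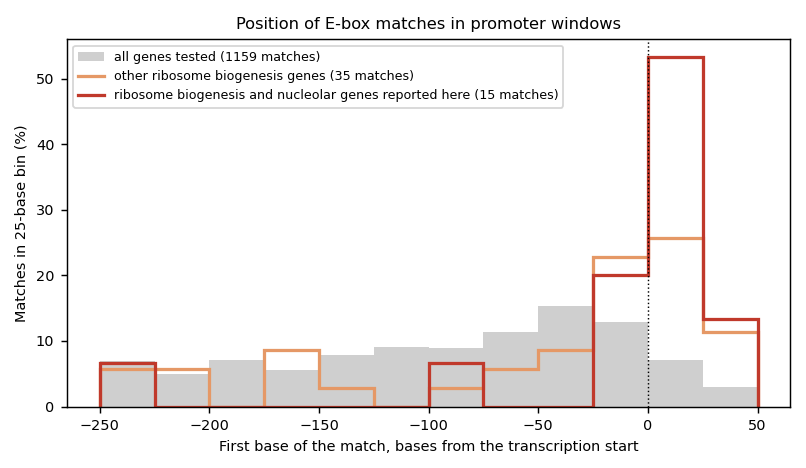
Position of the first base of each CACGTG match relative to the transcription start (x axis, bases) as a percentage of the matches of each gene set in bins of 25 bases (y axis). Of the 15 matches in the ribosome biogenesis and nucleolar genes (red line), 10 lie in the first 50 transcribed bases, against 116 of the 1159 in all genes tested (grey).

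The libraries held 3175149 to 4317286 counts. The siRNA targets were lower in siYAP/TAZ, with log2 fold changes of -0.80 for YAP1 (adjusted p of 0.0138 from the quasi-likelihood F test of edgeR, adjusted by Benjamini-Hochberg over 12510 genes and called the edgeR adjusted p from here on) and -0.69 for WWTR1, which encodes TAZ (edgeR adjusted p of 0.0311). Both targets were at the control level in siCtrl replicate 2 (204 and 109 CPM, the count relative to the TMM-scaled library total) and at the depleted level in siYAP/TAZ replicate 2 (118 and 67.1 CPM), which goes with the descriptions. On the first principal component, with 48.4% of the variance, siCtrl replicate 2 lay at 7.15, nearer to siYAP/TAZ replicate 1 at 9.77 than to the other controls at -42.6 and -34.9. All 10 mammary basal epithelial markers were detected in each library, LYZ, COL1A2 and COL3A1 were at 0 in all 6, and the 4 leukocyte markers together had 15 to 39 counts per library. The 4 endothelial markers together had 13, 13 and 9 counts in siCtrl and, after depletion, 25, 39 and 34, and the 6 fibroblast markers had 555 to 695, nearly all from PDGFRA. Their part in the results below was not tested. Nothing in the labels says that the libraries came from separate cultures, so p-values measure the spread between these libraries, which may be technical.

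The ribosome biogenesis and nucleolar genes had mostly negative log2 fold changes after depletion of YAP and TAZ, but not 1 of the 45 passed the test with group as the only term. The log2 fold change was negative for 39 of 45 (86.7%, against 50.1% of all genes tested), with a median of -0.30 (range -1.10 to 0.29) where the median over all genes was -0.001. All 45 passed the low-count filter. At an edgeR adjusted p under 0.05, 0 were lower and 0 higher, beside 1.22% and 0.743% of all genes. At an unadjusted p under 0.05, 9 were lower (20% of the 45, background 9.27%) and 0 higher (background 8.4%). In DESeq2, 1 gene (LYAR) was lower (background 2.47%) and 0 were higher (background 1.88%) at an adjusted p under 0.05. The count was thus not above the background. In DESeq2, 6 genes had an unadjusted p under 0.05, all lower (background 5.36%). This last background was taken over 19181 genes without the low-count filter. It is therefore not on the same footing as the edgeR backgrounds over 12510 genes. The lowest siCtrl library exceeded the highest siYAP/TAZ library for 9 genes (20% of the 45, beside 11.1% of all genes), and 0 genes were separated in the other direction, beside 11%. These 9 were FBL, WDR75, DDX10, WDR12, PPAN, GNL3, NPM3, DDX21 and LYAR.

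The labels number the replicates but do not call them pairs, and equal numbers were read as pairs from correlations in these same data. The count rose when the replicate number was a term of the fit. With this block, LYAR, BRIX1, DDX21 and GNL3 were lower (8.89% of the 45, background 5.44%) and 0 were higher (background 4.66%), and the median log2 fold change was -0.29.

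How far the groups stood apart varied with the library left out. Summed over the 45 genes, siCtrl replicates 1, 2 and 3 had 8438, 6545 and 7373 CPM, and siYAP/TAZ replicates 1, 2 and 3 had 6758, 6292 and 6073 CPM. The groups overlapped through siCtrl replicate 2, which lay below siYAP/TAZ replicate 1. It was the lowest control for 36 of 45 genes (80%, against 39.7% of all genes) and the highest for 1, NOB1. In the median over genes of log2 CPM minus the mean of the 6 libraries, siCtrl lay at 0.41, -0.14 and 0.23 and siYAP/TAZ at -0.06, -0.15 and -0.23. The highest value of a gene was in siCtrl replicate 1 for 31 genes and in siCtrl replicate 3 for 9. Without siCtrl replicate 2, the median log2 fold change was -0.43 with 42 of 45 negative. LYAR, BRIX1 and MRTO4 were lower (6.67% of the 45, near the background of 6.22% of 12836 genes) with 0 higher (background 6.08%). In that fit 29 were lower (background 14.2%) and 1 was higher (background 13.7%) at an unadjusted p under 0.05. Without both libraries whose labels disagree, the median was -0.44. LYAR, MRTO4, POLR1B and BRIX1 were then lower (8.89% of the 45, background 4.64%) with 0 higher (background 4.65%), and 23 were lower at an unadjusted p under 0.05 (background 12.8%). Without siCtrl replicate 1, the highest library for most of these genes, the median was -0.18 with 34 of 45 negative. There 0 were called (background 0.49% lower and 0.226% higher), and 2 were lower at an unadjusted p under 0.05 (background 7.04%). Without siYAP/TAZ replicate 3 the median was -0.24 and 0 were called (background 0.0869% lower and 0.0553% higher). In this fit 1 was lower at an unadjusted p under 0.05 (background 5.58%). With backgrounds this low, a count of 0 among 45 genes says little about them. Leaving out a library that is the lowest control of most of these genes moves their differences down by construction, and leaving out the highest control moves them up. Grouped by title instead, 44 of 45 were negative with a median of -0.31. In this grouping 0 of the 45 genes, and 0 of all genes, had an edgeR adjusted p under 0.05. The unadjusted p was under 0.05 for 6 of the 45, all lower (background 1.93%).

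**Figure D2:**
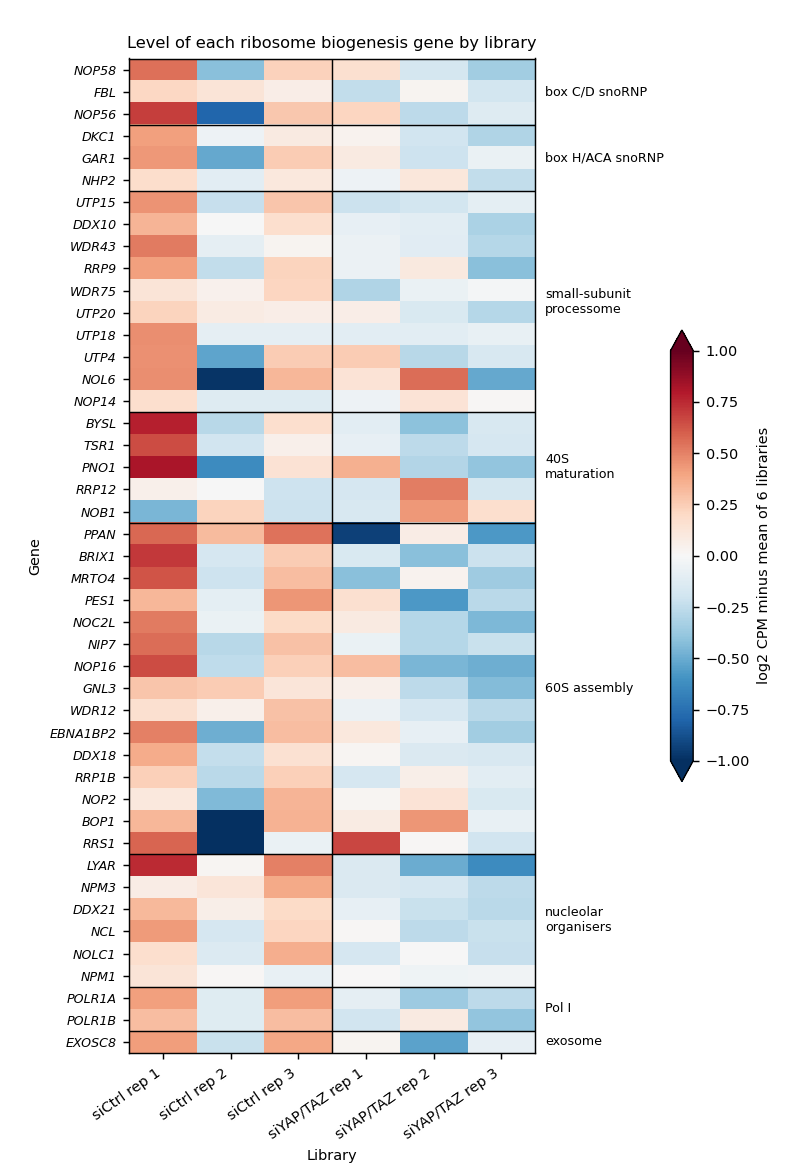
Log2 CPM of each gene minus its mean over the 6 libraries (color), with genes in rows, grouped by role and ordered by fold change, and libraries in columns. siCtrl replicates 1 and 3 are mostly red, with medians of 0.41 and 0.23, whereas siCtrl replicate 2, with a median of -0.14, is pale or blue like the siYAP/TAZ libraries.

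**Figure D3:**
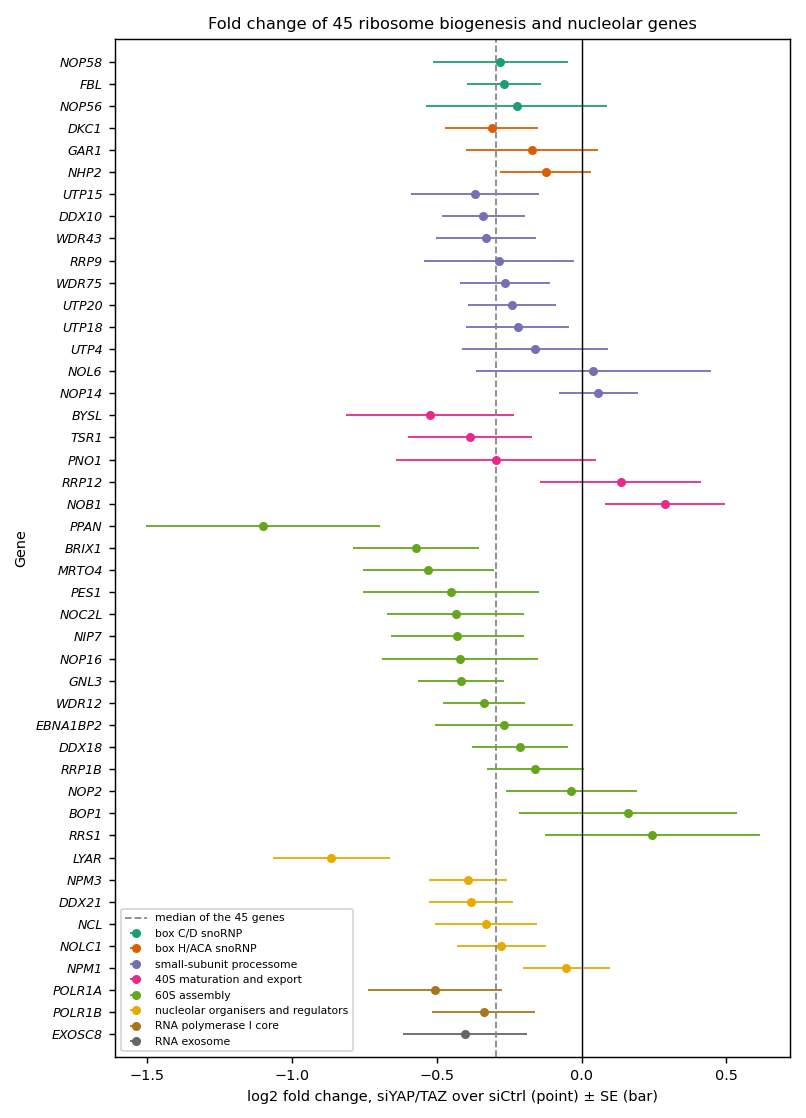
Log2 fold change of siYAP/TAZ over siCtrl with its standard error for each of the 45 genes, colored by role. Of the points, 39 lie left of 0 and the dashed line marks their median of -0.30.

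The nucleolar organisers and regulators held the gene with the smallest p-value. Of their 6 genes, 3 were lower at an unadjusted p under 0.05 (background 9.27% of all genes). LYAR, a zinc finger protein of the nucleolus linked to growth and to pre-rRNA processing, lies on chromosome 4, 4269428 to 4291881 (GRCh37, minus strand). It had 214, 129 and 182 CPM in siCtrl replicates 1, 2 and 3 and 115, 90.2 and 82.4 CPM in siYAP/TAZ replicates 1, 2 and 3. Each siYAP/TAZ library was below each control, and 54.9% of the control mean remained (175 ± 42.7 against 96.0 ± 17.2 CPM, SD, n = 3 each). The log2 fold change was -0.86 (SE 0.20, edgeR adjusted p of 0.0656). The edgeR adjusted p was 0.0034 with the replicate block and 0.0032 without siCtrl replicate 2. It was 0.176 without siCtrl replicate 1 and 0.253 without siCtrl replicate 3. Without siYAP/TAZ replicates 1, 2 and 3 in turn it was 0.0669, 0.202 and 0.282.

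DDX21, an RNA helicase that acts in transcription by RNA polymerases I and II and in rRNA processing (GRCh37 chromosome 10, 70715891 to 70744824, plus strand), stood at 1230, 1025 and 1124 CPM in the controls against 929, 846 and 819 CPM after depletion. All siYAP/TAZ libraries lay below all controls, at a log2 fold change of -0.38 (SE 0.14, edgeR adjusted p of 0.217, and 0.0458 with the block). NPM3, a histone chaperone of the nucleoplasmin family, had 98.8, 102 and 122 CPM in the controls against 84.8, 83.3 and 78.1 CPM after depletion. These groups did not overlap either, at -0.39 (SE 0.13, edgeR adjusted p of 0.177).

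The most abundant proteins of the nucleolus behaved less uniformly. NCL (nucleolin), which binds pre-rRNA and rDNA chromatin, had 983, 653 and 848 CPM in the controls against 740, 611 and 626 CPM after depletion. Only siCtrl replicate 2 reached into the siYAP/TAZ range, and the log2 fold change was -0.33 (SE 0.18, edgeR adjusted p of 0.368). NPM1 (nucleophosmin), the pentameric chaperone of the granular component, had 2519, 2324 and 2187 CPM in the controls against 2310, 2228 and 2242 CPM after depletion. Its groups overlapped, and its log2 fold change of -0.05 (SE 0.15, edgeR adjusted p of 0.890) was the smallest in size of the 6. NPM1 has many processed pseudogenes, and how reads shared with them were placed is not given in the sources used here. NOLC1, a chaperone of snoRNPs, had a log2 fold change of -0.28.

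The 60S assembly factors, the largest group with 15 genes, were negative for 13 with a median log2 fold change of -0.42. Of the 15, 5 were lower at an unadjusted p under 0.05 (background 9.27%). BRIX1, which acts in the early pre-60S particle (GRCh37 chromosome 5, 34915782 to 34926101, plus strand), stood at 86.7, 46.9 and 63.1 CPM in the controls against 47.4, 39.3 and 45.4 CPM after depletion. siCtrl replicate 2 lay just under the highest siYAP/TAZ library, and the log2 fold change was -0.57 (SE 0.22, edgeR adjusted p of 0.218). It passed with the replicate block (edgeR adjusted p of 0.0457) and without siCtrl replicate 2 (0.0186), whereas without siCtrl replicate 1 the log2 fold change was -0.32 (0.525).

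MRTO4, a paralog of the ribosomal stalk protein P0 that holds its place on the pre-60S particle (GRCh37 chromosome 1, 19578299 to 19586622, plus strand), stood at 73.2, 40.7 and 58.6 CPM in the controls against 35.1, 48.3 and 36.7 CPM after depletion. The groups overlapped between siCtrl replicate 2 and siYAP/TAZ replicate 2, the libraries with conflicting labels. The log2 fold change was -0.53 (SE 0.23, edgeR adjusted p of 0.265), and the edgeR adjusted p was 0.0277 without siCtrl replicate 2. Without siCtrl replicate 1 the log2 fold change was -0.32 (edgeR adjusted p of 0.595).

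GNL3 (nucleostemin), a nucleolar GTPase of stem and cancer cells (GRCh37 chromosome 3, 52715172 to 52728513, plus strand), stood at 145, 142 and 129 CPM in the controls against 123, 99.5 and 88.4 CPM after depletion. Here siCtrl replicate 2 stood with the other controls and the groups did not overlap, at -0.42 (SE 0.15, edgeR adjusted p of 0.195, and 0.0475 with the block). WDR12, which forms the PeBoW complex with PES1 and BOP1, had 60.3, 55.9 and 66.1 CPM in the controls against 51.7, 47.9 and 44.6 CPM after depletion, at -0.34 (SE 0.14, edgeR adjusted p of 0.258). The other PeBoW subunits gave -0.45 for PES1 and 0.16 for BOP1, with overlapping groups for both. The positive value of BOP1 rested on siCtrl replicate 2, and without it all 3 subunits were negative (BOP1 at -0.19).

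PPAN, a factor of early 60S maturation, had the lowest log2 fold change of the 45, -1.10 (SE 0.40, edgeR adjusted p of 0.205), at few counts. Its values were 4.88, 4.01 and 4.77 CPM in the controls against 1.36, 3.31 and 1.90 CPM after depletion, with as few as 6 counts in a library. The groups did not overlap. In all 6 libraries the counts of PPAN and P2RY11 added up exactly to those of the readthrough gene PPAN-P2RY11, so a read was counted for each gene that it overlapped.

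RRS1, which brings the 5S rRNA into the pre-60S particle, had the highest log2 fold change of the group. It had 39.1, 12.7 and 24.6 CPM in the controls against 41.5, 26.1 and 22.6 CPM after depletion, at 0.24 (SE 0.37, edgeR adjusted p of 0.780). The sign turned when either siCtrl replicate 2, the lowest library (-0.06), or siYAP/TAZ replicate 1, the highest (-0.07), was left out. The other 7 genes of the group, NOC2L, NIP7, NOP16, EBNA1BP2, DDX18, RRP1B and NOP2, ranged from -0.44 for NOC2L to -0.03 for NOP2, an rRNA methyltransferase, and the groups overlapped for each.

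**Figure D4:**
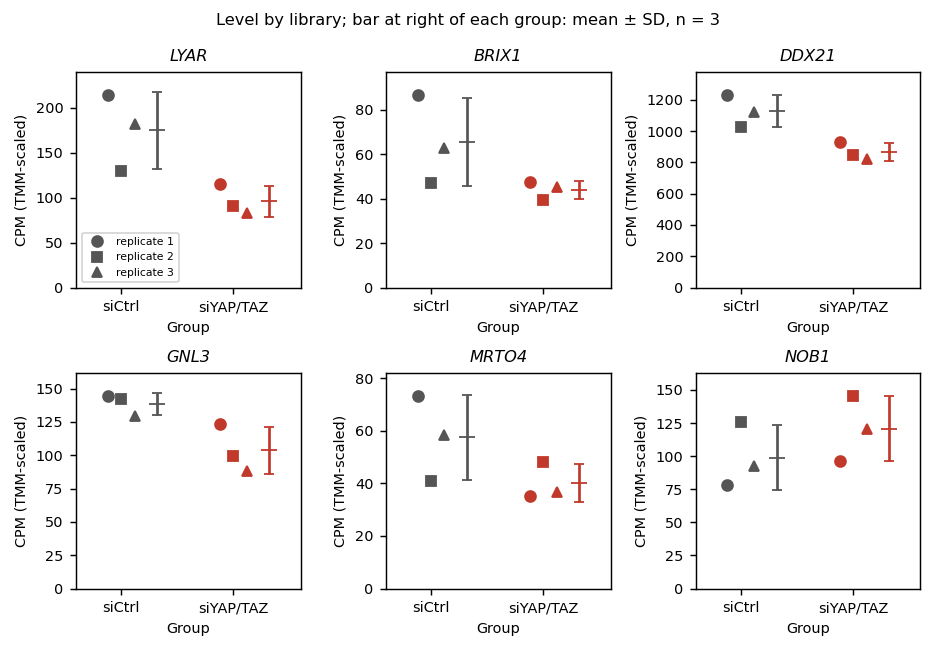
TMM-scaled CPM of LYAR, BRIX1, DDX21, GNL3, MRTO4 and NOB1 in each library (y axes from 0), with marker shapes for replicate numbers 1 to 3 and, beside each group, the mean and SD of 3 libraries. For LYAR, DDX21 and GNL3 every siYAP/TAZ library lies below every siCtrl library, whereas for NOB1 the highest level, 145 CPM, is in siYAP/TAZ replicate 2.

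RNA polymerase I was represented by its largest subunits, and both were negative. POLR1A, the largest catalytic subunit, had 20.7, 14.2 and 20.9 CPM in the controls against 14.5, 11.9 and 12.8 CPM after depletion, at -0.51 (SE 0.23, edgeR adjusted p of 0.293). siCtrl replicate 2 lay within the siYAP/TAZ range and the other controls lay above it. POLR1B, the second catalytic subunit, had 79.8, 59.3 and 79.9 CPM in the controls against 56.4, 68.4 and 49.0 CPM after depletion, at -0.34 (SE 0.18, edgeR adjusted p of 0.361). Its overlap came from the libraries with conflicting labels, siCtrl replicate 2 and siYAP/TAZ replicate 2, and without both of them its edgeR adjusted p was 0.0413. EXOSC8, a ring subunit of the RNA exosome that trims pre-rRNA 3′ ends, had 73.5, 46.9 and 71.9 CPM in the controls against 55.8, 37.7 and 51.7 CPM after depletion. Again siCtrl replicate 2 alone reached into the siYAP/TAZ range, and the log2 fold change was -0.40 (SE 0.21, edgeR adjusted p of 0.361).

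The small-subunit processome, made up of 10 genes here, had 8 negative log2 fold changes (median -0.25). Of the 10, 1 was lower at an unadjusted p under 0.05, near the background of 9.27%. DDX10, an RNA helicase, had 99.9, 78.7 and 88.5 CPM in the controls against 74.3, 73.4 and 63.4 CPM after depletion, without overlap and at -0.34 (SE 0.14, edgeR adjusted p of 0.263). UTP15, of the subcomplex that binds the 5′ end of the precursor, had 26.4, 16.4 and 23.4 CPM in the controls against 16.6, 16.9 and 18.0 CPM after depletion, at -0.37 (SE 0.22, edgeR adjusted p of 0.426). The siYAP/TAZ libraries were close together, and siCtrl replicate 2 lay below all of them.

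NOP14, a structural factor of the processome, had 117, 95.04 and 94.99 CPM in the controls against 100, 114 and 105 CPM after depletion, at 0.06 (SE 0.14, edgeR adjusted p of 0.866). The antisense gene NOP14-AS1 held nearly the same counts as NOP14 in each library (for siCtrl, 417, 310 and 391 against 406, 308 and 378), and whether strand was used in counting is not stated, so reads of the pair cannot be told apart. For the same reason the values of NOP16, NOC2L, WDR12, UTP15, GNL3, NIP7, TSR1, NHP2 and EXOSC8, each of which overlaps a gene on the opposite strand that held counts here, are uncertain to the extent that reads fell in the overlap. The same holds for EBNA1BP2 and PES1, whose opposite-strand genes CFAP57 and TCN2 held few counts (2 to 11 and 0 to 6 per library). The other 7 genes were WDR43, RRP9, WDR75, UTP20, UTP18, UTP4 and NOL6, from -0.33 for WDR43 to 0.04 for NOL6, and of these the groups did not overlap for WDR75.

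The genes of 40S maturation and export split by sign, with 3 of 5 negative. None had an unadjusted p under 0.05 (background 9.27% lower and 8.4% higher). BYSL (bystin), required for 40S processing, had 25.6, 12.04 and 16.6 CPM in the controls against 13.6, 10.9 and 13.1 CPM after depletion, at -0.52 (SE 0.29, edgeR adjusted p of 0.382). One control, replicate 1, was far above the other libraries. NOB1, the endonuclease that makes the final cut at the 3′ end of the 18S rRNA, had 78.1, 126 and 92.7 CPM in the controls against 96.1, 145 and 121 CPM after depletion. It had the highest log2 fold change of all 45 genes, 0.29 (SE 0.21, edgeR adjusted p of 0.507). It was higher than the control of the same number in each of the 3 pairs, and it was the one gene with siCtrl replicate 2 as its highest control. Its partner PNO1, which holds the same 3′ end before the cut, gave -0.30, TSR1 gave -0.39, and RRP12, an export factor, gave 0.14 at means of 10.2 and 11.2 CPM.

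The snoRNP proteins were all negative and none passed. FBL (fibrillarin), the methyltransferase of the box C/D snoRNPs, had 140, 133 and 128 CPM in the controls against 102, 124 and 107 CPM after depletion. Its groups did not overlap, at -0.27 (SE 0.13, edgeR adjusted p of 0.314). The scaffold NOP58 had 269, 138 and 216 CPM in the controls against 205, 162 and 145 CPM after depletion, at -0.28 (SE 0.23, edgeR adjusted p of 0.579). Its partner NOP56 had 139, 49.1 and 104 CPM in the controls against 99.5, 71.4 and 78.3 CPM after depletion, at -0.22 (SE 0.31, edgeR adjusted p of 0.758). Both scaffolds were lowest of all libraries in siCtrl replicate 2 while the enzyme FBL was at the control level there.

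In the box H/ACA snoRNPs, which convert uridine to pseudouridine and share their core with telomerase, the enzyme DKC1 (dyskerin) had 140, 102 and 112 CPM in the controls against 108, 91.9 and 85.1 CPM after depletion, at -0.31 (SE 0.16, edgeR adjusted p of 0.346). NHP2 had 56.0, 46.0 and 53.3 CPM in the controls against 47.6, 53.6 and 41.6 CPM after depletion, at -0.12 (SE 0.16, edgeR adjusted p of 0.730). GAR1 lay between them at -0.17. The groups overlapped for all 3.

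Genes with an E-box in the promoter window were not set apart by their fold change. The median log2 fold change was -0.27 over the 14 genes with CACGTG (range -0.53 to 0.06, 12 negative) and -0.38 over the 24 genes without it (range -1.10 to 0.29, 23 negative). MYC itself had 254, 305 and 272 CPM in the controls against 228, 297 and 197 CPM after depletion, at -0.21 (SE 0.17, edgeR adjusted p of 0.572). The groups overlapped, and siCtrl replicate 2, the lowest control of most ribosome biogenesis genes, was the highest library for MYC.

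The wider pathway had mostly negative signs too. Of 115 other ribosome biogenesis genes, listed by symbol but with earlier results of these data known, 114 were tested. Their median log2 fold change was -0.17, 89 were negative, and 0 passed an edgeR adjusted p of 0.05 in either direction. At an unadjusted p under 0.05 there were 16 lower (14%, background 9.27%) and 0 higher (background 8.4%). DESeq2 called 3 lower (EXOSC9, NOP10 and TCOF1, 2.63%, near the background of 2.47%) and 0 higher (background 1.88%). With the replicate block 7 were lower (6.14%, near the background of 5.44%) and 0 higher (background 4.66%). siCtrl replicate 2 was the lowest control for 84 of the 114 (73.7%). The smallest p-values with a lower level were those of NOP10, WDR36 and NOC3L. NOP10, the smallest core protein of the box H/ACA snoRNPs, had 101, 62.0 and 81.4 CPM in the controls against 46.7, 51.9 and 47.3 CPM after depletion, at -0.75 (SE 0.18, edgeR adjusted p of 0.0765, and 0.0197 with the block). WDR36, of the small-subunit processome, gave -0.58 (edgeR adjusted p of 0.110, and 0.0346 with the block), and NOC3L, of the pre-60S particle, gave -0.56 (0.111, and 0.0336 with the block). The groups did not overlap for these 3 genes. In the other direction, DDX49 had a log2 fold change of 0.55 (edgeR adjusted p of 0.312), POLR1D, a subunit shared by RNA polymerases I and III, 0.33 (0.388) and NSA2 0.21 (0.389).

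The cytosolic ribosomal protein genes, whose products the assembly factors put in place, had the opposite sign. Of 80 genes with such symbols, paralogs included, 75 had a positive log2 fold change, with a median of 0.26. None passed an edgeR adjusted p of 0.05, and DESeq2 called 0. At an unadjusted p under 0.05 there were 15 higher (background 8.4%) and 0 lower (background 9.27%). With the replicate block 10 were higher (background 4.66%) and 0 lower (background 5.44%). Summed, they had 38974, 49939 and 42662 CPM in the controls against 46863, 56814 and 55619 CPM after depletion, so the groups overlapped through siCtrl replicate 2 here too, which was the highest control for 72 of the 80. Ribosomal protein genes have many pseudogenes, which makes their counts uncertain.

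Mitotic genes moved with the same libraries but did not place siCtrl replicate 2 among the siYAP/TAZ libraries. Over 20 mitotic genes the median log2 fold change was -0.99, and 11 were lower at an edgeR adjusted p under 0.05 (background 1.22%). Of these 20 genes, 19 were lower in DESeq2 (background 2.47%) and 20 with the block (background 5.44%). Their sum was 3383, 2782 and 3371 CPM in the controls against 1989, 1332 and 1427 CPM after depletion, without overlap. Even so, siCtrl replicate 2 was the lowest control for 17 of the 20 mitotic genes (85%). The part of a change in the share of dividing cells in the levels of the ribosome biogenesis genes was not tested, and in bulk RNA fewer cells of a kind and less RNA per cell cannot be told apart.

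**Figure D5:**
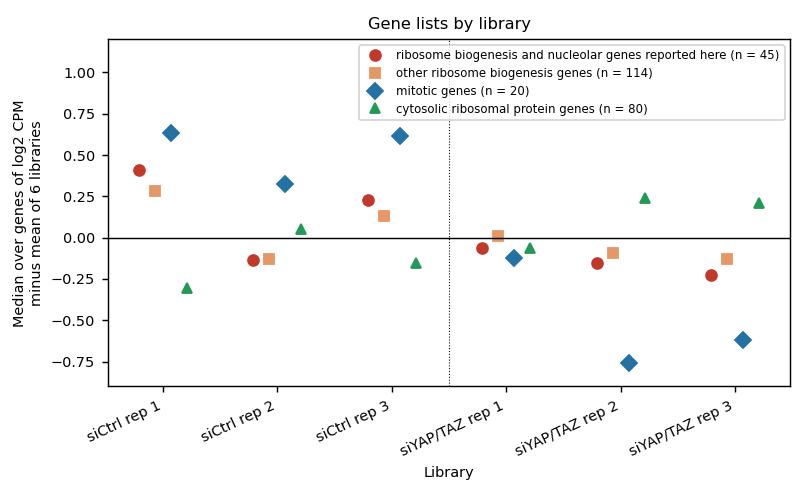
Median over the genes of each list of log2 CPM minus the mean of the 6 libraries (y axis) in each library (x axis). In siCtrl replicate 2 the ribosome biogenesis and nucleolar genes lie at -0.14, near the siYAP/TAZ libraries, while the mitotic genes lie at 0.33, above all siYAP/TAZ libraries.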

How the data were processed

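The authors deposited raw counts for 6 libraries, as 1 table with Entrez gene IDs and no normalisation. The submitters' processing notes name cutadapt 4.2, Bowtie2 2.3.5.1 and hg19, and the gene annotation and use of strand are not given in the sources used here. Symbols came from RefSeq and gene positions from GENCODE 44 lifted to GRCh37, which has the coordinates of hg19. Counts were tested with edgeR 4.0.16 (R 4.3.3): default low-count filter, TMM scaling, quasi-likelihood F test, 2 groups, two-sided, Benjamini-Hochberg adjustment over 12510 genes. Groups came from the library descriptions. Alternatives were DESeq2 1.42.0, other scalings and filters, robust dispersion, the replicate block, titles as groups and libraries left out. The script was tested on simulated data. Deviations of same-numbered libraries correlated across genes at 0.416, 0.345 and 0.129, all above 0.1, so the numbers, taken from the descriptions, were read as pairs. Library totals of 3175149 to 4317286 limit the precision for genes with few counts, and a count of 0 allows up to 3 counts.

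Values in every library are given for the 12 genes with the smallest p, the lowest and highest log2 fold change of each role and the 3 with the highest mean CPM. Genes of other lists were named by smallest p, besides YAP1, WWTR1, MYC and the genes singled out after their values were seen. The genes and lists were chosen with earlier results of these data known. Standard errors come from the fold change and its F statistic. Promoter windows are from RefSeq (GRCh38.p14). Protein sequences were not used here.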

Additional observations from a re-analysis of the deposited data

How the results depend on the processing

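Of 24 named genes, 20 kept the sign of the log2 fold change under all 15 alternatives in which they were tested. PPAN was not tested with a mean of at least 50 counts. Of the 45 genes, 0 were higher past the threshold under any alternative. The share of all genes higher ran from 0% with titles as groups to 6.08% without siCtrl replicate 2. The number lower past an adjusted p of 0.05, 0 in the edgeR fit by group, was 1 with DESeq2 and with no low-count filter (LYAR in both). It was 4 with the replicate block, 4 without both libraries whose labels disagree (LYAR, MRTO4, POLR1B and BRIX1), and 0 to 3 when single libraries were left out. The share of all genes lower was 1.22% by group, 2.47% with DESeq2, 1.56% with no low-count filter and 5.44% with the block. That share was 4.64% without both libraries and 0.0788% to 6.22% with single libraries left out. At an unadjusted p under 0.05, 9 were lower, against 18 with the replicate block, 23 without both libraries whose labels disagree and 1 to 29 with single libraries left out. The share of all genes lower at that p was 9.27% by group, 13.3% with the block and 12.8% without both libraries. With single libraries left out it was 5.58% to 14.2%. Without siCtrl replicate 1, the log2 fold changes of NOP58 (-0.05), BYSL (-0.19), DKC1 (-0.17), UTP15 (-0.22) and NCL (-0.19) shrank by over 1.5 times. So did those of BRIX1 (-0.32), MRTO4 (-0.32), NHP2 (-0.065) and NOB1 (0.144). The one gene higher at an unadjusted p under 0.05, NOB1, was so with the replicate block (1) and without siCtrl replicate 2, so that leaving out single libraries gave 0 to 1. The median log2 fold change went from -0.43 to -0.18 with single libraries left out. The sign turned for RRS1 (-0.21 with titles as groups, -0.06 when siCtrl replicate 2 and -0.07 when siYAP/TAZ replicate 1 was left out), for NOP14 (-0.12 with titles and -0.042 without both libraries whose labels disagree), and without siCtrl replicate 1 for NPM1 (0.003) and NOP56 (0.12). With single libraries left out, RRS1 ranged from -0.07 to 0.68, NPM1 from -0.10 to 0.003 and NOP56 from -0.54 to 0.12. The cause of these turns was not tested. With a mean of at least 50 counts, 39 of the 45 genes were tested. LYAR ranged from -1.04 to -0.57 and its adjusted p from 0.00324 to 0.898, the highest with titles as groups. The replicate block changed no other call of a named gene than those of LYAR, BRIX1, DDX21 and GNL3. Genes with few counts, such as PPAN, are limited by depth.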

Other observations

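The genes around MYC, whose products compete for MAX and the E-box, had log2 fold changes of both signs, 5 negative and 5 positive among those tested. Of 12 listed, 10 were tested and 0 passed an edgeR adjusted p of 0.05, while DESeq2 called MXD4 higher (background 1.88%). At an unadjusted p under 0.05, 1 was lower (background 9.27%) and 2 were higher (background 8.4%). MXD4, a MAX partner that represses E-box genes, had 10.6, 24.7 and 12.1 CPM in the controls against 28.6, 44.3 and 32.6 CPM after depletion, a log2 fold change of 1.16 (edgeR adjusted p of 0.100, and 0.00394 with the replicate block). The groups did not overlap, and siCtrl replicate 2 was the control nearest to the siYAP/TAZ libraries. MXI1, of the same family, had 35.04, 70.1 and 47.7 CPM in the controls against 58.7, 96.9 and 75.6 CPM after depletion, at 0.59 (edgeR adjusted p of 0.277, and 0.0137 with the block). MXD3, the family member linked to dividing cells, had 174, 138 and 158 CPM in the controls against 119, 105 and 116 CPM after depletion, at -0.46 (edgeR adjusted p of 0.114, and 0.0265 with the block). MXD4, MXI1 and MXD3 were described after their values were seen.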
